A study of Mus musculus with 18 samples.

Results

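EGF, the epidermal growth factor, was added to mouse mammary organoids that lacked RasGRP1 and grew with a Wnt surrogate and R-spondin 2, and gene expression was compared with and without it. The comparison uses 6 of the 18 libraries of the study, chosen by their labels, and every gene of the count table that passed a filter on low counts, 17092 of 55536. The study grew organoids of 2 genotypes in 3 media, with 3 biological replicates of each combination. The labels do not say whether these came from separate mice, so p-values measure the spread between cultures. Both groups were RasGRP1-/- (KO) mammary epithelial cells of C57BL/6 mice aged 6 to 7 weeks, in matrigel pellets and DMEM/F12 with insulin, transferrin and selenium, treated for 5 days. The EGF-WR group (3 libraries) received EGF at 2.5 nM with NGS-Wnt at 0.1 nM and Rspo2 at 8.3 nM. The WR group (3 libraries) received the same NGS-Wnt and Rspo2 without EGF. The same pair of media in wild-type (WT) organoids, 3 libraries each, is used only to set the KO response beside the WT one. How the RasGRP1 allele was made is not stated in the labels, and the deletion is shared by both KO groups.

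EGF binds the EGF receptor on epithelial cells, and the receptor loads Ras with GTP through exchange factors such as the SOS proteins, which starts the RAF, MEK and ERK kinases. RasGRP1 is another Ras exchange factor, one that responds to diacylglycerol. Wnt ligands act through Frizzled and LRP receptors to stabilise beta-catenin, which works with TCF and LEF factors in the nucleus, and R-spondins raise the number of Wnt receptors at the cell surface. In the mammary gland, basal cells are known as the more Wnt-responsive layer, while luminal cells include the progenitors of the milk-producing cells.

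The 6 libraries held 25156341 to 30781440 counts. Keratins of both epithelial layers were present in each of them. Basal keratin Krt14 had 1347, 2436 and 1901 CPM in EGF-WR, against 2346, 3280.0 and 3019 CPM in WR medium. Luminal keratin Krt18 had 1079, 1463 and 1227 CPM in EGF-WR, against 579, 1120.0 and 874 CPM in WR medium. Values are in the order of batches 1, 2 and 3, which is used throughout. Markers of other cell types were present too, at levels given below that differed between the media. Rasgrp1 had 0, 0 and 6 counts in EGF-WR and 0, 0 and 9 counts in WR libraries of KO organoids, against 7, 6 and 18 counts in EGF-WR and 28, 10 and 25 counts in WR libraries of WT organoids. Within each batch and medium the KO count was below the WT count, but the KO libraries of batch 3 reached the lowest WT libraries of other batches. Mitochondrial genes took 1.28%, 2.22% and 1.35% of the counts in EGF-WR and 1.93%, 2.26% and 2.08% in WR libraries, and the part of this difference in the results was not tested. A library is named below by its medium and batch, such as WR 1. CPM are counts scaled by edgeR's effective library size.

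With EGF, 1043 genes rose and 1136 fell at an adjusted p under 0.05 in edgeR's quasi-likelihood test with the batch as a block, which is 6.1% and 6.65% of the genes tested and 12.7% together. The 6.1% and 6.65% are the shares to set beside the list counts below. The lists were chosen with earlier results of these data known, so this comparison describes the lists and does not test them. The median log2 fold change over all 17092 genes was 0.0039, and among called genes 201 rose and 554 fell by more than 2-fold. All EGF-WR libraries lay above all WR libraries for 6.64% of the genes tested and below for 7.80%, and the groups overlapped for 85.6%. Genes named by the size of their rise or fall were picked from those without overlap. Without the batch in the model 206 rose and 233 fell. Leaving out WR 1 lowered the total to 1451 called genes. In the authors' deposited table for the same comparison 2694 genes were called, and 2174 of these were shared with the present fit, which is 80.7% of theirs and 99.8% of the genes called here, every one with the same sign.

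**Figure D1:**
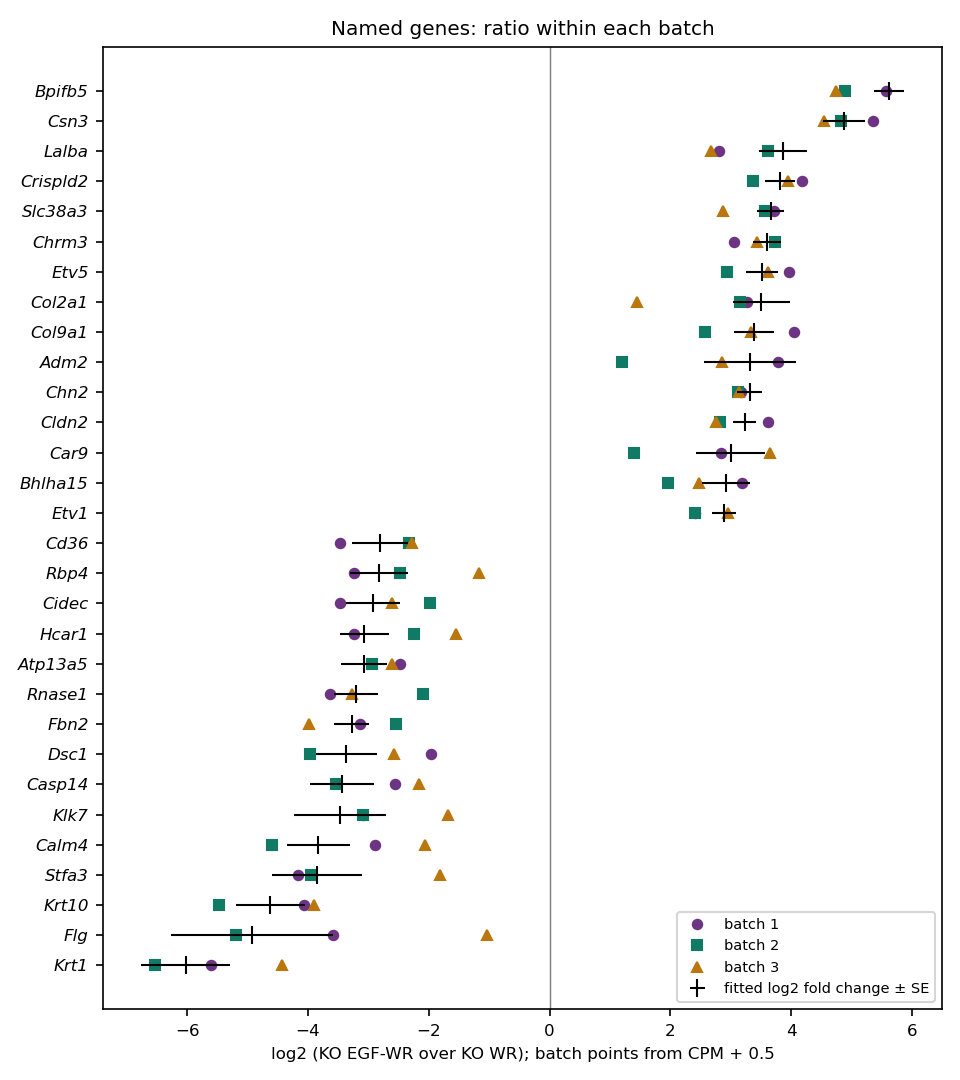
Ratio of KO EGF-WR to KO WR within each batch (points, log2 of CPM + 0.5) and the fitted log2 fold change with its standard error (bars) for the 15 genes that rose most and the 15 that fell most by the naming rule. The rule admits only genes without overlap between the groups, so all 30 lie on the same side of 0 in each of the 3 batches. Bpifb5 stands at 5.61 at the top and Krt1 at -6.02 at the bottom.

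Among genes known to follow ERK activity, the 3 ETS-family transcription factors of the PEA3 group rose together, while the immediate early factors did not. Etv5 (chromosome 16, 22381309 to 22439719 on GRCm38) had 147, 123 and 200.4 CPM in EGF-WR, against 9.02, 15.6 and 15.9 CPM in WR medium. The lowest EGF-WR library was 7.71 times as high as the highest WR library (log2 3.52 ± 0.26 SE, adjusted p = 4.83e-06). Etv4 had 30.4, 63.5 and 69.7 CPM in EGF-WR, against 12.1, 19.8 and 17.1 CPM in WR medium (log2 1.71 ± 0.23 SE, adjusted p = 2.59e-04). Etv1 had 13.5, 12.6 and 14.1 CPM in EGF-WR, against 2.12, 1.98 and 1.39 CPM in WR medium (log2 2.88 ± 0.20 SE, adjusted p = 6.31e-08), again with no overlap. Of the 28 ERK-responsive genes on the list 5 rose and 1 fell, with a median log2 fold change of 0.053. These are 17.9% and 3.57%, against 6.1% and 6.65% of all genes tested. The other rises were small: Spred1, an inhibitor of Ras signalling, at log2 0.37 ± 0.10 SE and Dusp7, an ERK phosphatase, at log2 0.47 ± 0.13 SE. They were lost in the model without the batch, which left 3 rises, and leaving out EGF-WR 3 or WR 1 also left 3. Spred1 was lost as well without EGF-WR 1 or WR 3, and Dusp7 without EGF-WR 2 or WR 2. The 1 fall became 3 without WR 1 and 2 without WR 3.

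None of the 10 immediate early genes was called, and their values pointed downward more often than upward. Fos, a subunit of the AP-1 factor, had 430.5, 1529 and 580.1 CPM in EGF-WR, against 541, 2116 and 968 CPM in WR medium (log2 -0.55 ± 0.37 SE, adjusted p = 0.419), with overlapping groups and the highest level of each group in batch 2. Egr1, a zinc-finger factor induced within minutes by growth factors, stood at log2 -0.64 ± 0.32 SE (adjusted p = 0.253). The feedback phosphatase Dusp6 had 189.6, 452 and 204 CPM in EGF-WR, against 45.5, 359.6 and 116 CPM in WR medium, higher with EGF in every batch but with overlapping groups (log2 0.85 ± 0.48 SE, adjusted p = 0.319). Ccnd1, the gene of cyclin D1 and a target of both ERK and Wnt signals, was the 1 list member that fell, with 469.7, 521 and 653 CPM in EGF-WR, against 712, 728 and 897 CPM in WR medium (log2 -0.51 ± 0.087 SE, adjusted p = 7.74e-04).

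The EGF receptor system itself changed little. Of its 18 tested genes 2 rose, both of them ligands of the ERBB3 and ERBB4 receptors, and none fell. Neither rise was called without the batch in the model or without the libraries of batch 3. Nrg2 (neuregulin 2) had 2.29, 6.60 and 8.32 CPM in EGF-WR, against 0.244, 1.32 and 1.12 CPM in WR medium, without overlap (log2 2.71 ± 0.47 SE, adjusted p = 9.10e-04). Nrg1 stood at 8.95, 18.6 and 13.7 CPM in EGF-WR, against 4.39, 6.71 and 6.67 CPM in WR medium and was no longer called when any 1 library was left out. The receptor Egfr had 134, 154 and 110.4 CPM in EGF-WR, against 157, 189 and 137 CPM in WR medium (log2 -0.27 ± 0.10 SE, adjusted p = 0.0915) and was not called. No gene for a ligand of EGFR itself, amphiregulin and TGF-alpha included, passed the test, and none of the 5 receptor inhibitors did. Among 7 tested Ras exchange factors none rose and 3 fell, and without the batch 1 fell. Rasgrp3, a relative of the deleted gene, had 6.22, 7.56 and 6.80 CPM in EGF-WR, against 14.7, 17.1 and 14.2 CPM in WR medium, with every EGF-WR library below every WR library (log2 -1.16 ± 0.23 SE, adjusted p = 0.00224). Rasgrp2 stood at log2 -1.38 ± 0.32 SE and Rasgrf2 at log2 -2.48 ± 0.65 SE. Leaving out EGF-WR 3 or WR 1 left 1 of these 3 calls, and Rasgrf2 was also lost without EGF-WR 1 or WR 2. Both genes of the SOS factors, which couple the EGF receptor to Ras, were tested and not called.

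Several milk protein genes and luminal progenitor markers rose, with the milk genes Csn3 and Lalba among the 15 largest rises. Csn3, the gene of kappa-casein (chromosome 5, 87925579 to 87932665), had 400.2, 639 and 765 CPM in EGF-WR, against 9.30, 22.0 and 32.3 CPM in WR medium. Even the lowest EGF-WR value was 12.4 times the highest WR value (log2 4.87 ± 0.34 SE, adjusted p = 6.08e-06). Lalba (alpha-lactalbumin, needed to make lactose) had 7.82, 7.67 and 7.13 CPM in EGF-WR, against 0.697, 0.165 and 0.694 CPM in WR medium (log2 3.86 ± 0.39 SE, adjusted p = 5.89e-06). Csn1s1 (alpha-S1-casein) had 396, 500.3 and 987 CPM in EGF-WR, against 48.6, 95.1 and 218 CPM in WR medium (log2 2.48 ± 0.23 SE, adjusted p = 3.10e-05). Other milk genes stayed near the detection limit in both media: Csn2 (beta-casein) had 0, 0 and 1.18 CPM in EGF-WR, against 0.139, 0 and 0.132 CPM in WR medium, and was not called. Wap (whey acidic protein) had 0.473, 0.406 and 0.657 CPM in EGF-WR, against 0.174, 0.906 and 0.264 CPM in WR medium, and was not called. Over the list, 6 of 19 tested milk and alveolar genes rose and 1 fell, with a median of 0.35, and without the batch 3 rose and none fell. The further rises were Folr1 (a folate receptor) at log2 0.76, Muc15 at log2 0.59 and Xdh at log2 0.37, with milk lipase gene Cel as the 1 fall at log2 -1.38. Muc15 was lost without EGF-WR 1, WR 1 or WR 2 and Xdh without EGF-WR 1, EGF-WR 3, WR 1 or WR 3. The call of Cel was lost without EGF-WR 3 or without WR 3, and 2 of the list fell without EGF-WR 1. Stat5a, the transducer of the prolactin signal, was at log2 0.17, and Elf5, a factor of alveolar cells, at log2 0.30, neither called.

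Of 16 luminal progenitor markers 9 rose and none fell (median 0.65), and 7 still rose without the batch. Lcn2 (lipocalin 2, a secreted iron-scavenging protein) had 3102, 2916 and 4248 CPM in EGF-WR, against 1447, 1551 and 1754 CPM in WR medium (log2 1.09 ± 0.094 SE, adjusted p = 1.13e-06). Hey1, a transcription factor of the Notch pathway, had 199.6, 143 and 212 CPM in EGF-WR, against 47.8, 68.3 and 41.9 CPM in WR medium, at least 2.10 times as high in each EGF-WR library as in any WR library (log2 1.80 ± 0.24 SE, adjusted p = 4.15e-04). The further rises were Csn3, Trf (transferrin) at log2 1.45, Itgb3 at log2 1.20, Tspan8 at log2 1.15, Cd14 at log2 0.89, Mfge8 (milk fat globule protein) at log2 0.78 and Sox10 at log2 0.52. Kit, a receptor widely used to sort these cells, was at log2 -0.14 and not called. The call of Itgb3 was lost without any 1 library other than EGF-WR 3, and that of Sox10 without EGF-WR 1, EGF-WR 3 or WR 2. The summed CPM of the list was 9998 to 11436 in EGF-WR and 6858 to 7591 in WR libraries, so the groups did not overlap.

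Secreted antimicrobial and transport proteins stood beside them. Bpifb5, a secreted protein of the BPI fold family (chromosome 2, 154223742 to 154240902), had 66.0, 33.9 and 53.2 CPM in EGF-WR, against 0.905, 0.659 and 1.52 CPM in WR medium, the largest rise by the naming rule (log2 5.61 ± 0.25 SE, adjusted p = 1.22e-09). Its neighbour in the family Bpifb1 had 12.7, 0.811 and 4.47 CPM in EGF-WR, against 1.53, 0.741 and 0.396 CPM in WR medium (log2 2.48 ± 0.59 SE, adjusted p = 0.0107), with overlapping groups and a call lost without EGF-WR 1, WR 1 or WR 3. S100a8, a calcium-binding antimicrobial protein subunit, had 25.9, 25.7 and 78.5 CPM in EGF-WR, against 3.10, 6.34 and 8.49 CPM in WR medium (log2 2.77 ± 0.24 SE, adjusted p = 2.35e-06). Pigr, the receptor that carries antibodies across epithelia into milk, was at log2 0.66 ± 0.11 SE. Of 29 tested inflammatory and acute-phase genes 5 rose and 3 fell, with a median of -0.16. The 5 rises were secreted proteins (Bpifb5, Bpifb1, S100a8, Lcn2 and Pigr), and none of the 14 chemokines and cytokines rose. Those that fell were the chemokine Ccl2 at log2 -1.07 ± 0.22 SE, complement C3 at log2 -0.64 ± 0.11 SE and haptoglobin (Hp) at log2 -1.73 ± 0.25 SE. On this list 5 genes fell when EGF-WR 1 or WR 1 was left out.

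Further genes named by size of rise covered several roles. Crispld2, a secreted glycoprotein, had 998, 849.8 and 1215 CPM in EGF-WR, against 54.6, 82.0 and 78.3 CPM in WR medium (log2 3.81 ± 0.25 SE, adjusted p = 2.06e-06). Slc38a3, a glutamine transporter, had 40.9, 12.7 and 23.9 CPM in EGF-WR, against 2.65, 0.618 and 2.84 CPM in WR medium (log2 3.66 ± 0.22 SE, adjusted p = 1.91e-08). Chrm3, the muscarinic acetylcholine receptor M3, had 29.8, 34.0 and 34.0 CPM in EGF-WR, against 3.17, 2.10 and 2.68 CPM in WR medium (log2 3.60 ± 0.24 SE, adjusted p = 5.77e-08). These 3 genes had no overlap between the media, as the naming rule requires, and rose in the model without the batch as well. Chn2 (a GTPase-activating protein for Rac) rose by log2 3.31 ± 0.20 SE, Cldn2 (a pore-forming claudin of tight junctions) by 3.23 ± 0.19 SE and Bhlha15 (a transcription factor of secretory cells, also called Mist1) by 2.92 ± 0.40 SE. Adm2, a peptide hormone of the calcitonin family, had 6.37, 2.06 and 17.0 CPM in EGF-WR, against 0, 0.618 and 1.92 CPM in WR medium, lower in batch 2 than in the other EGF-WR libraries, and its call was lost without the batch in the model (log2 3.32 ± 0.77 SE, adjusted p = 0.00993).

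**Figure D2:**
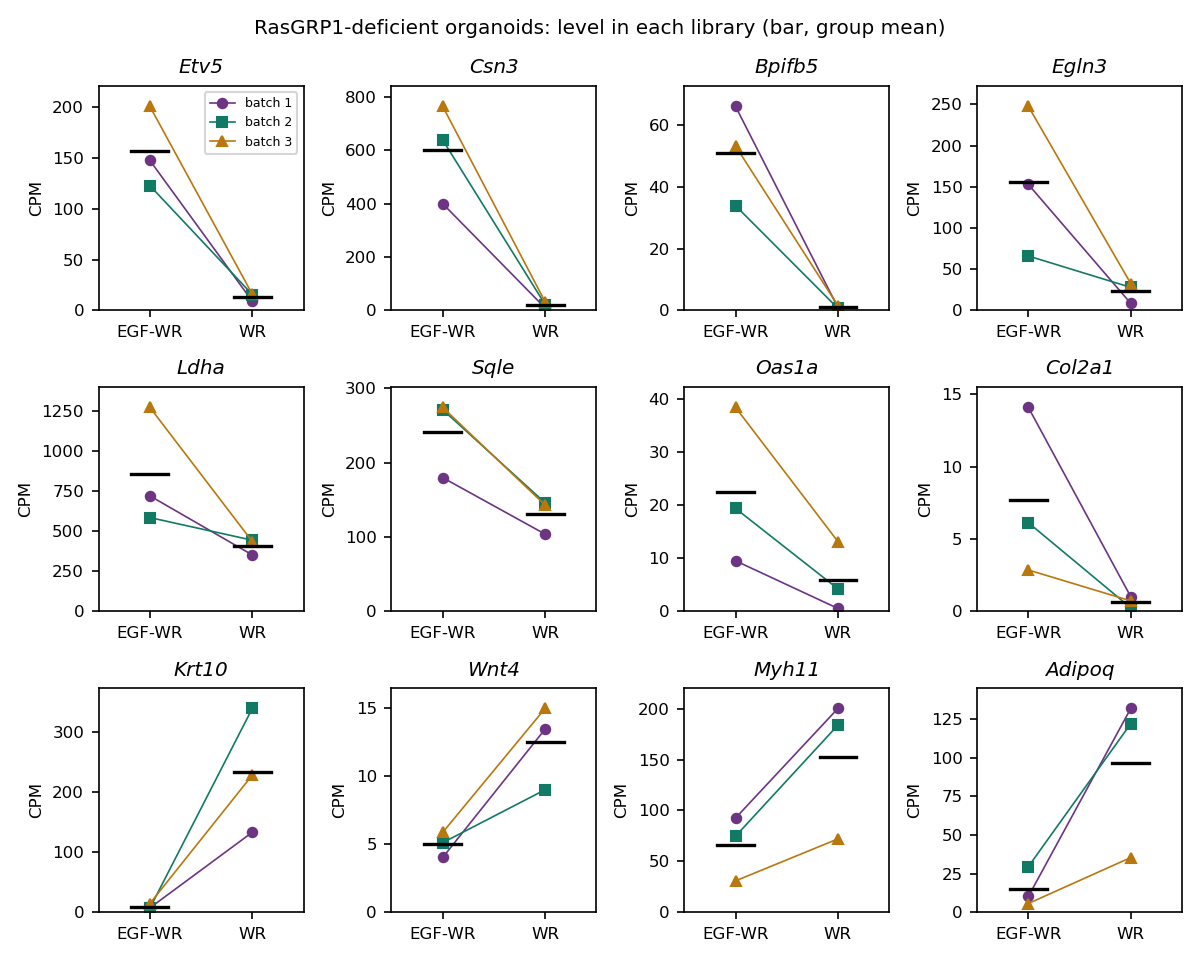
Level in CPM of 12 genes in each library of KO organoids in EGF-WR (left) and WR medium (right), with a line joining the libraries of 1 batch and a bar at each group mean. The axes start at 0, and Etv5, Csn3, Bpifb5 and Krt10 show groups far apart, while Oas1a and Myh11 have groups that overlap.

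Genes of glycolysis and of the hypoxia response were higher with EGF, in batches 1 and 3 more than in batch 2. Of 20 genes 9 rose and none fell, and all 20 had a log2 fold change above 0, with a median of 0.97. The median ratio within a batch was log2 1.03 in batch 1, 0.20 in batch 2 and 1.26 in batch 3. Leaving out EGF-WR 2, or all libraries of batch 2 in both genotypes and every medium, raised the number of rises to 16. With all libraries of batch 1 left out there were 2, and without the batch in the model there were 6. Promoters of 3 of the genes that rose are shown because they hold the letters ACGTG, the core that hypoxia-inducible factors are known to bind. These are the 250 bases before the gene start in RefSeq on GRCm38.p6, 5′ to 3′ on the strand of the gene, with each match on either strand in capitals, and for Ldha 1 of 2 listed starts.
Egln3 chr12:54203875-54204124 (- strand): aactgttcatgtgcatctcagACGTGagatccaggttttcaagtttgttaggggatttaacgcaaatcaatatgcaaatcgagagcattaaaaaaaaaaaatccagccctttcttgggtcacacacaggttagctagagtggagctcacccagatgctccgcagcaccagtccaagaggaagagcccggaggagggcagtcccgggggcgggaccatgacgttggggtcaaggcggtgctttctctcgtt
Car9 chr4:43506776-43507025 (+ strand): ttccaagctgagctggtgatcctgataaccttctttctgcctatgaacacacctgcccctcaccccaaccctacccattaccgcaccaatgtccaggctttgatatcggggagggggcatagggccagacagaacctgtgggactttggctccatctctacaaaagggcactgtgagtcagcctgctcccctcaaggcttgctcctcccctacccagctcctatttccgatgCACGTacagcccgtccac
Ldha chr7:46845554-46845803 (+ strand): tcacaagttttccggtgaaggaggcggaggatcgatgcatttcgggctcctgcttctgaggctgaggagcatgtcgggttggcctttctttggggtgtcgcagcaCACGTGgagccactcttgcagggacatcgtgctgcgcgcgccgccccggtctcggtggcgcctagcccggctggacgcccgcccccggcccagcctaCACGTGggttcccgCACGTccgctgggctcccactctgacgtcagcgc
Of the 19 list members with a promoter entry 12 held at least 1 such match (63.2%), against 18.5% of 27025 genes, where overlapping matches were counted apart. Of these 12, Egln3, Car9, Ldha, Pgk1 and Pkm rose and the others were not called. A match describes the letters only.

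Egln3, an oxygen-sensing prolyl hydroxylase that is itself a hypoxia target, had 153, 66.0 and 248 CPM in EGF-WR, against 8.50, 27.9 and 32.6 CPM in WR medium, lowest among EGF-WR libraries in batch 2 and still above every WR library (log2 2.80 ± 0.47 SE, adjusted p = 0.00248). Car9, the hypoxia-induced carbonic anhydrase IX, had 19.9, 8.52 and 86.3 CPM in EGF-WR, against 2.37, 2.92 and 6.41 CPM in WR medium, again with no overlap (log2 2.99 ± 0.57 SE, adjusted p = 0.00446). Ldha, which makes lactate from pyruvate, had 721, 586 and 1273 CPM in EGF-WR, against 352, 444 and 436 CPM in WR medium (log2 1.03 ± 0.21 SE, adjusted p = 0.00599). In the glycolytic pathway 7 of 12 genes rose: Hk1 at log2 1.01, Pfkl at log2 1.04, Gapdh at log2 0.93, Pgk1 at log2 1.04, Eno1 at log2 1.09, Pkm at log2 0.70 and Ldha. Pgk1 was lost without EGF-WR 3 or WR 1 and Pkm without WR 1 or WR 3. Of the 8 hypoxia genes Car9 and Egln3 rose. The glucose transporter Slc2a1 had 249, 137 and 296 CPM in EGF-WR, against 136, 172 and 136 CPM in WR medium, higher with EGF in batches 1 and 3 but not in batch 2 (log2 0.61 ± 0.26 SE, adjusted p = 0.165) and a call only without EGF-WR 2. Vegfa, the angiogenic growth factor, was at log2 0.56 (adjusted p = 0.428). Several glycolytic genes have processed pseudogenes of near-identical sequence, and how the authors' counting split such reads is not stated.

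Cholesterol synthesis genes rose together by less than 2-fold in most cases. Of 21 genes 18 rose and none fell, all 21 lay above 0, and the median was 0.77. Sqle, the squalene epoxidase, had 179.9, 271 and 274 CPM in EGF-WR, against 104, 146 and 143 CPM in WR medium (log2 0.88 ± 0.12 SE, adjusted p = 2.21e-04). Every EGF-WR library was above every WR library, and the library of batch 1 was the lowest in each medium. Rises of similar size were fitted for Lss (log2 0.72), Cyp51 (0.77), Msmo1 (0.83), Nsdhl (0.62) and Dhcr7 (0.79), enzymes from squalene onward, and for Srebf2 (0.68), the transcription factor of the pathway. None of the 18 was called without the batch in the model, and 11 were called without EGF-WR 3. The median ratio was log2 0.41 in batch 1, 0.89 in batch 2 and 0.87 in batch 3.

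Hmgcs1, an enzyme of the early pathway, had 151, 359.8 and 342 CPM in EGF-WR, against 122, 207 and 177 CPM in WR medium (log2 0.69 ± 0.19 SE, adjusted p = 0.0279), a call lost without EGF-WR 3, WR 2 or WR 3. Its promoter is shown since it alone of the 14 members with an entry (7.14%, against 1.22% of 27025 genes) held the sterol regulatory element letters TCACNCCAC on either strand, in capitals below.
Hmgcs1 chr13:119690101-119690350 (+ strand): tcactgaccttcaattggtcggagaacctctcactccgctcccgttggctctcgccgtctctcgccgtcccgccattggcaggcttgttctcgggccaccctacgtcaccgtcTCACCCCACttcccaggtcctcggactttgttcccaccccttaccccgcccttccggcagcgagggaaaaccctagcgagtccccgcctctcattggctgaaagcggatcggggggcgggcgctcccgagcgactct
Fatty acid synthesis genes moved in part: 5 of 12 rose and none fell (median 0.32), 3 without the batch and 8 without WR 1. The largest rise was that of Thrsp, a regulator of lipogenesis, with 14.9, 7.49 and 18.8 CPM in EGF-WR, against 3.66, 2.68 and 2.61 CPM in WR medium (log2 2.19 ± 0.39 SE, adjusted p = 0.00151). Elovl6, which lengthens fatty acids, had 119, 170.2 and 172 CPM in EGF-WR, against 63.8, 74.6 and 83.6 CPM in WR medium (log2 1.04 ± 0.10 SE, adjusted p = 3.99e-06). Scd2, Acly and Fads1 rose by log2 0.61, 0.55 and 0.45. Fasn, the fatty acid synthase, was at log2 0.37 and called only without WR 1.

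All 18 interferon-stimulated genes lay above 0 and 8 rose, with a median of 1.14. Oas1a, an antiviral sensor of double-stranded RNA, had 9.53, 19.4 and 38.4 CPM in EGF-WR, against 0.557, 4.24 and 13.2 CPM in WR medium (log2 2.20 ± 0.47 SE, adjusted p = 0.0072). Bst2 (tetherin) had 48.2, 98.3 and 208 CPM in EGF-WR, against 27.2, 43.9 and 80.7 CPM in WR medium (log2 1.15 ± 0.27 SE, adjusted p = 0.0148), with overlapping groups, a higher level with EGF in each batch, and a call lost without EGF-WR 3, WR 1 or WR 2. In both media the levels of Oas1a and Bst2 differed several-fold between batches. Oasl2, Mx1, Mx2, Ifi44, Irf7 and Rtp4 rose by log2 1.13 to 1.45, while Isg15 at log2 1.19 ± 0.42 SE and Ifit1 at log2 1.12 ± 0.53 SE were not called. These calls were fragile: 1 or 2 of the 8 were left when EGF-WR 1 (2), EGF-WR 2 (2), EGF-WR 3 (1), WR 1 (1) or WR 2 (1) was left out. None was called without the batch in the model or with all libraries of batch 2 left out. Oas1a was called in each fit that left out 1 library. The promoters of Oas1a and Bst2 are shown because they hold the interferon-stimulated response element, searched as GAAA, any 2 bases and GAAA again, in capitals where found on either strand.
Oas1a chr5:120907526-120907775 (- strand): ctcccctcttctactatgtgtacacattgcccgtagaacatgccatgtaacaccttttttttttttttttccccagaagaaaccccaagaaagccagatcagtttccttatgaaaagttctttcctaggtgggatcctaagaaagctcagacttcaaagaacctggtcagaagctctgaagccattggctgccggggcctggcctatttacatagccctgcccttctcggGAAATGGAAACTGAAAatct
Bst2 chr8:71537473-71537722 (- strand): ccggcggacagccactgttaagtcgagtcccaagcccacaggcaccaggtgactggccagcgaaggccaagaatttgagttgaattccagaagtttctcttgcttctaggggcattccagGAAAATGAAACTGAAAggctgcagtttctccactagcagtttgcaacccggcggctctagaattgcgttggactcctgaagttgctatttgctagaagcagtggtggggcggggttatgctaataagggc
Among the 12 members with a promoter entry 8 held this motif (66.7%), against 3.46% of all 27025 genes. Of these 8, Oas1a and Bst2 rose and the others were not called. The share counts tested members whether or not they rose. For comparison, the TCF/LEF letters CTTTGAT stood in 3 of 33 Wnt pathway promoters (9.09%, against 3.72% of all genes) and the ETS letters CCGGAAGT in 0 of 18 promoters of ERK-responsive genes (3.23% of all genes), on either strand of the same windows.

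A set of cartilage-type matrix genes rose from low levels. Col2a1, the main collagen of cartilage, had 14.1, 6.12 and 2.86 CPM in EGF-WR, against 1.01, 0.247 and 0.727 CPM in WR medium (log2 3.50 ± 0.48 SE, adjusted p = 1.59e-04). Col9a1, a collagen that decorates its fibrils, had 78.0, 48.4 and 80.1 CPM in EGF-WR, against 4.25, 7.74 and 7.50 CPM in WR medium (log2 3.38 ± 0.32 SE, adjusted p = 4.33e-05). Col9a1 was at least 6.25 times as high in every EGF-WR library as in any WR library. In all, 5 of 12 tested genes rose and 1 fell (median 0.13), and the same number rose without the batch and without any 1 library. The other rises were Col9a2 at log2 1.73 ± 0.23 SE, Col11a1 at log2 1.31 ± 0.16 SE and the factor Sox5 at log2 0.94 ± 0.14 SE. Acan (aggrecan), the large proteoglycan of cartilage, went the other way with 5.13, 3.91 and 1.02 CPM in EGF-WR, against 30.6, 7.37 and 3.80 CPM in WR medium (log2 -1.63 ± 0.49 SE, adjusted p = 0.0413), a call lost without EGF-WR 1, EGF-WR 3, WR 1 or WR 2 and without the batch. Sox9, which drives these genes in chondrocytes, was at log2 -0.21 and was called only without WR 2.

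The largest falls were in genes of the cornified outer layers of skin. Krt10, a keratin of suprabasal keratinocytes (chromosome 11, 99385254 to 99389364), had 7.53, 7.12 and 14.8 CPM in EGF-WR, against 133, 339.8 and 229 CPM in WR medium. Its partner Krt1 had 1.6, 2.25 and 6.90 CPM in EGF-WR, against 102, 254 and 159.7 CPM in WR medium. The lowest WR library was 9.04 times as high as the highest EGF-WR library for Krt10 (log2 -4.63 ± 0.57 SE, adjusted p = 4.05e-04) and 14.8 times for Krt1 (log2 -6.02 ± 0.74 SE, adjusted p = 3.91e-04). Casp14, a protease of cornification, had 0.837, 0.774 and 0.657 CPM in EGF-WR, against 7.42, 14.3 and 4.69 CPM in WR medium (log2 -3.44 ± 0.53 SE, adjusted p = 4.05e-04). Calm4, a calmodulin-like protein of the epidermis, had 0.364, 0.516 and 2.07 CPM in EGF-WR, against 5.88, 24 and 10.3 CPM in WR medium (log2 -3.83 ± 0.52 SE, adjusted p = 4.09e-04). The desmosomal cadherin Dsc1 had 1.13, 0.738 and 1.51 CPM in EGF-WR, against 5.88, 18.8 and 11.6 CPM in WR medium (log2 -3.36 ± 0.51 SE, adjusted p = 5.77e-04). Flg (filaggrin, which bundles keratins) had 0.182, 0 and 1.35 CPM in EGF-WR, against 7.66, 17.8 and 3.30 CPM in WR medium (log2 -4.93 ± 1.34 SE, adjusted p = 0.0406), without overlap, but the call held only with all libraries or without WR 3. Klk7, a protease that sheds cornified cells, fell (log2 -3.47 ± 0.76 SE), as did Stfa3, a cysteine protease inhibitor of a family of near-identical genes (log2 -3.85 ± 0.75 SE), whose reads the counting could split. The call of Klk7 was lost without EGF-WR 2, and Flg, Klk7 and Stfa3 were not called without the batch.

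Over the list of cornified envelope and suprabasal genes 11 of 30 tested fell and 1 rose (median -1.0), and 6 fell without the batch. By role these were 2 of 8 suprabasal keratins, 6 of 13 envelope genes and 3 of 4 desmosomal cadherins. Sprr1b, a cross-linked envelope protein, had 0.218, 2.36 and 3.42 CPM in EGF-WR, against 3.03, 34.5 and 7.10 CPM in WR medium (log2 -2.98 ± 0.52 SE, adjusted p = 0.0015). Lor (loricrin) was at log2 -1.42 ± 0.43 SE, Sbsn at log2 -0.71 ± 0.15 SE, Dsg1a at log2 -1.97 ± 0.35 SE and Dsc3 at log2 -0.90 ± 0.25 SE. Lor was called in 1 of the 6 fits that left out a library, the one without EGF-WR 1, and Dsc3 likewise in the one without WR 2. The list did not move as 1 block: Ivl (involucrin) had 84.0, 34.4 and 135 CPM in EGF-WR, against 16.9, 51.0 and 119 CPM in WR medium (log2 0.63 ± 0.63 SE, adjusted p = 0.617). Grhl1, a transcription factor of epithelial differentiation, rose to 193, 169 and 168 CPM in EGF-WR, against 105, 120.5 and 132 CPM in WR medium (log2 0.57 ± 0.13 SE, adjusted p = 0.00739), a call lost without EGF-WR 1 or WR 1.

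Wnt pathway genes were counted by role, since both groups received the same Wnt surrogate and R-spondin. Of 53 tested genes 5 rose and 15 fell, with a median of -0.23; without the batch 1 rose and 4 fell, and without WR 1 the counts were 2 and 9. Among 11 ligands 5 fell and none rose. Wnt4, a ligand of hormone-sensing luminal cells, had 4.04, 5.13 and 5.88 CPM in EGF-WR, against 13.5, 9.02 and 15 CPM in WR medium (log2 -1.33 ± 0.26 SE, adjusted p = 0.00204). Wnt10a had 13.2, 23.0 and 18.7 CPM in EGF-WR, against 42.8, 40.6 and 46.4 CPM in WR medium (log2 -1.27 ± 0.26 SE, adjusted p = 0.00446). Rspo1, a partner of Wnt signals made in the gland, had 4.99, 0.959 and 2.79 CPM in EGF-WR, against 15, 6.30 and 12.8 CPM in WR medium (log2 -2.02 ± 0.36 SE, adjusted p = 0.00105). These 3 had no overlap between media, as was so in that direction for 7.80% of all genes tested. The remaining falls were Wnt5b at log2 -0.55 ± 0.11 SE and Wnt11 at log2 -1.64 ± 0.37 SE, the last of which was lost without WR 2.

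Receptors changed in both directions, with 3 rises and 2 falls among 15. The co-receptor Lrp5 had 551, 550.4 and 647 CPM in EGF-WR, against 346, 387 and 387 CPM in WR medium (log2 0.64 ± 0.071 SE, adjusted p = 1.47e-05). Fzd5 and Lrp6 rose by log2 0.84 and 0.30, calls that were lost without any 1 library other than EGF-WR 3. Lgr5, an R-spondin receptor and stem cell marker, had 91.7, 83.8 and 64.3 CPM in EGF-WR, against 170.4, 89.7 and 118 CPM in WR medium (log2 -0.61 ± 0.14 SE, adjusted p = 0.00879), with overlapping groups and a call lost without EGF-WR 1, EGF-WR 3 or WR 1. Fzd4 was at log2 -0.94 ± 0.24 SE, lost without EGF-WR 1, EGF-WR 2, WR 1 or WR 2. Among 14 feedback and secreted inhibitors 2 rose and 3 fell. Axin2, a scaffold of the beta-catenin destruction complex and the most used readout of Wnt signalling, had 5.71, 37.6 and 35.0 CPM in EGF-WR, against 19.9, 78.5 and 74.6 CPM in WR medium (log2 -1.22 ± 0.36 SE, adjusted p = 0.0469), lower with EGF in each batch, with overlapping groups and a call that did not hold without any 1 library. Nkd1, an inhibitor induced by Wnt, had 9.86, 9.40 and 6.74 CPM in EGF-WR, against 31.1, 17.3 and 16.1 CPM in WR medium (log2 -1.29 ± 0.29 SE, adjusted p = 0.00822), lost without WR 1. Apcdd1 had 10.1, 8.78 and 12.7 CPM in EGF-WR, against 28.0, 18.5 and 32.4 CPM in WR medium (log2 -1.33 ± 0.24 SE, adjusted p = 0.00151), which was called in each of those fits. Bambi (log2 0.60) and Kremen1 (log2 0.25) rose, and Kremen1 was lost without EGF-WR 1, EGF-WR 3, WR 1 or WR 2.

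None of the 5 nuclear factors was called, with Lef1 at 3.49, 0 and 0.493 CPM in EGF-WR, against 0.0697, 0 and 0.198 CPM in WR medium (log2 3.25 ± 1.05 SE, adjusted p = 0.0536), which was called only without EGF-WR 2 or without WR 3, and beta-catenin gene Ctnnb1 at log2 -0.28. Of 8 other targets 5 fell: Ccnd1, the adhesion receptor Cd44 (log2 -0.34, lost without EGF-WR 1, EGF-WR 3, WR 1 or WR 2), and the transcription factors Prox1 (log2 -1.86), Twist1 (log2 -1.79) and Runx3 (log2 -1.59, lost without EGF-WR 1, EGF-WR 3 or WR 1). Prox1 had 2.33, 3.61 and 1.35 CPM in EGF-WR, against 11.4, 11.7 and 3.60 CPM in WR medium and is also known as a marker of lymphatic endothelium. Leaving out EGF-WR 1 or WR 2 also left 2 of the 5 rises in the pathway.

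Basal markers fell more often than they rose. Of 26 genes 12 fell and 3 rose, with a median of -0.43, and without the batch 1 fell and none rose. Trp63, the transcription factor of basal epithelial cells, had 79.8, 72.0 and 86.9 CPM in EGF-WR, against 114, 130.4 and 157 CPM in WR medium, without overlap (log2 -0.75 ± 0.14 SE, adjusted p = 0.00196). The basal keratin Krt14, whose levels are given above, fell with overlapping groups (log2 -0.63 ± 0.11 SE, adjusted p = 0.00121). Krt5 was at log2 -0.55 ± 0.17 SE and was lost without EGF-WR 1, EGF-WR 2, WR 1 or WR 3. In the contractile group 3 of 8 fell. Myh11, smooth muscle myosin, had 92.6, 74.8 and 31 CPM in EGF-WR, against 200.1, 184 and 72.2 CPM in WR medium (log2 -1.21 ± 0.24 SE, adjusted p = 0.005). Mylk, the kinase of myosin light chain, was at log2 -0.99 ± 0.17 SE, and Acta2, smooth muscle actin, was at log2 -0.79 ± 0.18 SE and lost without WR 2. Itga6, an integrin used to sort basal cells, rose by log2 0.40 ± 0.064 SE, as did Igfbp2 and Igfbp5 (log2 0.59 and 0.57). Igfbp2 was lost without any 1 library other than EGF-WR 2 and Igfbp5 without any 1 other than EGF-WR 3, and Itga6 was called in each of these fits. Smooth muscle genes are also made by vessel walls, and Pdgfrb, a marker of pericytes and fibroblasts, had 110.5, 56.4 and 52.7 CPM in EGF-WR, against 218, 124 and 83.0 CPM in WR medium, and its part in these falls was not tested.

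Luminal markers gave 4 rises and 1 fall among 14 (median 0.17), none without the batch. Krt18, whose levels are given above, was at log2 0.58 ± 0.13 SE (adjusted p = 0.00709), Epcam, an adhesion molecule higher on luminal cells, at log2 0.37 ± 0.081 SE and Cldn7 at log2 0.49 ± 0.069 SE. Krt8, the partner of Krt18, was at log2 0.40 ± 0.13 SE and was lost when any 1 library was left out, and Krt19, the 1 fall at log2 -0.51 ± 0.14 SE, was lost without EGF-WR 2, EGF-WR 3, WR 1 or WR 2. Among 14 tested hormone-sensing markers 5 rose and 2 fell (median -0.18), 2 and 1 without the batch. Prlr, the prolactin receptor, had 169, 139.5 and 144 CPM in EGF-WR, against 67.2, 91.1 and 115 CPM in WR medium, without overlap (log2 0.75 ± 0.14 SE, adjusted p = 0.00179). Cited1, a transcriptional cofactor, had 7.02, 7.23 and 7.23 CPM in EGF-WR, against 2.79, 1.48 and 2.48 CPM in WR medium (log2 1.70 ± 0.29 SE, adjusted p = 7.54e-04). Foxa1, Prom1 and Stc2 rose by log2 0.94, 0.89 and 0.54, and Wnt4 and Fgfr2 (log2 -0.46) fell. Foxa1 was lost without EGF-WR 3, WR 1 or WR 2, Prom1 without these or WR 3, Stc2 without EGF-WR 1, EGF-WR 3, WR 1 or WR 2, and Fgfr2 without any 1 library other than WR 2. Esr1, the estrogen receptor, had 15.9, 9.81 and 12.1 CPM in EGF-WR, against 12.9, 12.3 and 19.1 CPM in WR medium (log2 -0.24 ± 0.18 SE, adjusted p = 0.476) and was not called. Pgr, the progesterone receptor, was at log2 -0.25, not called. The summed CPM of the basal list ran from 24304 to 40055 in EGF-WR and from 23414 to 31665 in WR libraries, and that of the luminal list from 6803 to 7859 and from 6097 to 7659, so both sums overlapped.

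Genes proposed as mammary stem cell markers fell in 9 of 18 cases and rose in 3 (median -0.61), with 2 falls and 1 rise without the batch and 3 falls without EGF-WR 1 or without WR 1. Nrp1, a co-receptor of semaphorins and VEGF, was at log2 -1.49 ± 0.24 SE, Zeb1 at log2 -0.94 ± 0.19 SE and Bcl11b at log2 -0.78 ± 0.22 SE, the last of which was called in 1 of the 6 fits without a library, the one without WR 2. The 3 rises were Tspan8, Itgb3 and Sox10, which also stand on the luminal progenitor list, and Tspan8 alone of these was called in each fit without a library. Procr, a marker of multipotent basal cells, was at log2 -0.62 ± 0.22 SE and called only without EGF-WR 3. Of the 9 falls, Cdh5 is an endothelial cadherin, called again only without WR 3, and Twist1 and Zeb1 also mark mesenchymal cells.

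**Figure D3:**
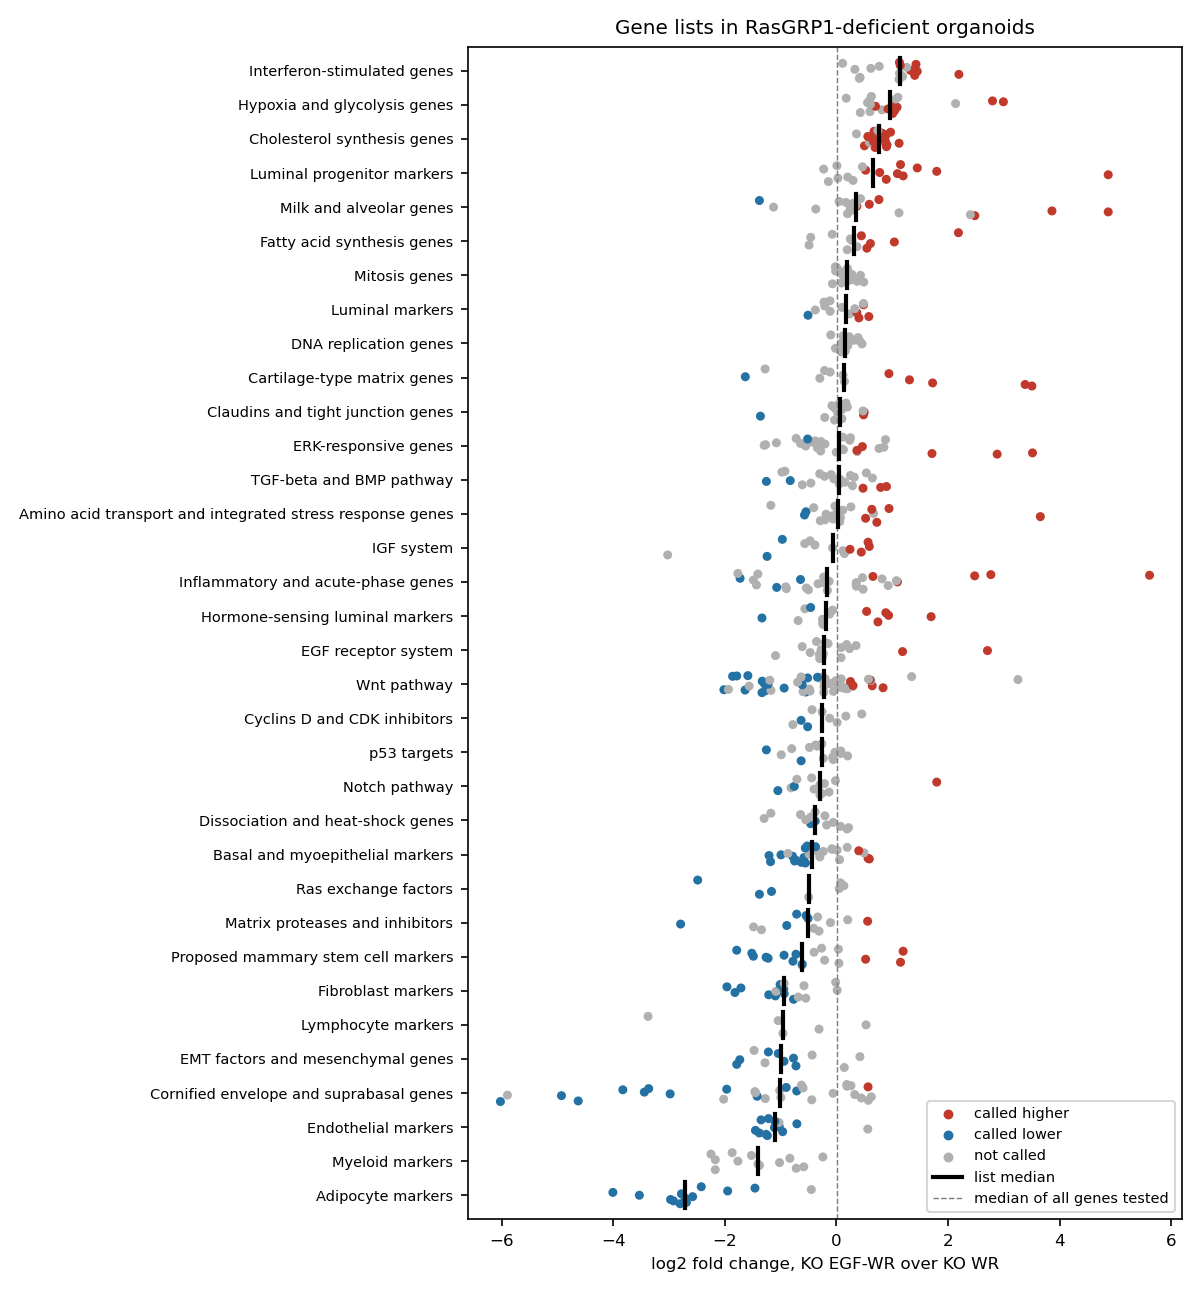
Fitted log2 fold change, KO EGF-WR over KO WR, of every tested member of the 34 gene lists, ordered by list median (black bars), with called genes in red (higher) and blue (lower) and the median of all genes as a dashed line. Interferon-stimulated genes have the highest median (1.14) and adipocyte markers the lowest (-2.71), and DNA replication and mitosis genes have no called member.

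Markers of cells other than the epithelium were lower with EGF. Adipocyte markers fell in 12 of 13 cases (median -2.71). Adipoq, the fat-cell hormone adiponectin, had 10.3, 29.6 and 5.75 CPM in EGF-WR, against 132, 122 and 35.5 CPM in WR medium (log2 -2.80 ± 0.43 SE, adjusted p = 0.00146). Plin1, which coats lipid droplets, had 11.2, 39.0 and 5.66 CPM in EGF-WR, against 152, 198 and 38.8 CPM in WR medium. Car3, a carbonic anhydrase of fat and muscle, had 0, 0.332 and 0.395 CPM in EGF-WR, against 5.01, 3.17 and 3.87 CPM in WR medium. Car3 and Adipoq did not overlap between media, while EGF-WR 2 and WR 3 differed little for Plin1. Named by size in the same group were Cidec (log2 -2.92), the fatty acid transporter Cd36 (-2.81), the retinol carrier Rbp4 (-2.82) and the lactate receptor Hcar1 (-3.07), which are abundant in fat. Without the batch 1 of the 12 list calls was left, and Cidec, Cd36 and Rbp4 were not called. The summed CPM of the list was 329, 523 and 153 in EGF-WR and 2337, 2084 and 477 in WR libraries, and no member was at 0 in all 6.

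Endothelial markers fell in 12 of 14 cases (median -1.11), 5 without the batch. Pecam1, an adhesion molecule of vessel lining, had 36.8, 45.5 and 41.1 CPM in EGF-WR, against 100.3, 136 and 62.9 CPM in WR medium, without overlap (log2 -1.24 ± 0.25 SE, adjusted p = 0.00677). Tie1, Emcn, Esam and Egfl7 fell, at log2 -1.38, -1.11, -1.04 and -1.02. With EGF-WR 1, EGF-WR 3, WR 1 or WR 2 left out 7 of the 12 were called, and 3 with all libraries of batch 2 left out. Flt1, a VEGF receptor, was at log2 0.56 ± 0.28 SE and was called higher only without WR 2. Fibroblast markers fell in 9 of 16 cases and none rose (median -0.94), 5 without the batch. Dcn, the matrix proteoglycan decorin, had 15.4, 8.52 and 16.9 CPM in EGF-WR, against 76.7, 28.6 and 41.2 CPM in WR medium (log2 -1.82 ± 0.34 SE, adjusted p = 0.00355). Col6a2, a collagen of connective tissue, had 252, 219.7 and 206 CPM in EGF-WR, against 632, 608 and 357 CPM in WR medium (log2 -1.21 ± 0.17 SE, adjusted p = 4.05e-04). Neither gene overlapped between the media. Summed CPM were 252 to 308 for the endothelial list in EGF-WR and 373 to 784 in WR libraries, and 2173 to 3623 against 3874 to 7679 for the fibroblast list, with no overlap and no member at 0 throughout.

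Myeloid and lymphocyte markers were scarce, at 11.8 to 26.1 and 4.59 to 6.18 CPM summed in EGF-WR against 30.1 to 56.7 and 6.31 to 15.8 CPM in WR libraries. None of 13 tested myeloid markers (median -1.41) and none of the 5 tested of 14 lymphocyte markers (median -0.96) was called, and Cd3d, Cd3e, Cd3g and Ms4a1, which define T and B cells, had no count in the 6 libraries. In these bulk libraries fewer cells of a type and less RNA per cell cannot be told apart, and the part of the other cell types in the changes of epithelial genes was not tested.

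Genes of the epithelial-mesenchymal transition moved with those markers. Of 12 genes 7 fell and none rose (median -0.99), 3 without the batch. Vim, the mesenchymal filament vimentin, had 356, 472 and 412 CPM in EGF-WR, against 723, 846 and 551 CPM in WR medium (log2 -0.77 ± 0.12 SE, adjusted p = 7.50e-04). Zeb2, a repressor of E-cadherin, had 14, 10.4 and 10.3 CPM in EGF-WR, against 53.5, 44.2 and 21.3 CPM in WR medium (log2 -1.73 ± 0.20 SE, adjusted p = 4.38e-05). Both were without overlap. Twist1, Prrx1 and Zeb1 fell, at log2 -1.79, -1.04 and -0.94, and Cdh1, E-cadherin itself, was at log2 -0.11, not called. Among other falls named by size, Fbn2, a fibrillin of elastic fibres, had 8.99, 6.34 and 3.22 CPM in EGF-WR, against 82.7, 39.4 and 58.7 CPM in WR medium (log2 -3.28 ± 0.29 SE, adjusted p = 1.01e-05). Rnase1, a secreted ribonuclease of endothelium, had 1.35, 3.95 and 1.64 CPM in EGF-WR, against 22.6, 18.5 and 20.1 CPM in WR medium (log2 -3.21 ± 0.36 SE, adjusted p = 2.39e-05). Atp13a5, a P-type ATPase, had 2.51, 0.922 and 0.723 CPM in EGF-WR, against 16.2, 10.4 and 6.94 CPM in WR medium (log2 -3.07 ± 0.38 SE, adjusted p = 4.54e-05). These 3 genes had no overlap, as the naming rule requires, and fell in the model without the batch as well.

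Genes of cell division showed no call. None of 20 DNA replication genes (median 0.15) and none of 21 mitosis genes (median 0.19) passed the test in either direction. Mki67, the proliferation antigen Ki-67, had 239.7, 405 and 315 CPM in EGF-WR, against 307, 312 and 362 CPM in WR medium (log2 -0.07 ± 0.16 SE, adjusted p = 0.848), with overlapping groups. Within batch the median mitosis ratio was log2 0.037 in batch 1, 0.40 in batch 2 and 0.10 in batch 3, and 2 mitosis genes and 1 replication gene were called higher when WR 3 was left out. Among 9 cyclins D and CDK inhibitors 2 fell (median -0.25), Ccnd1 and Cdkn1a, the p21 inhibitor, at log2 -0.63 ± 0.17 SE, which was lost without EGF-WR 1, EGF-WR 2 or WR 2. Neither was called without the batch. Cdkn1a and Gdf15 (log2 -1.25 ± 0.23 SE) were the 2 that fell of 15 p53 targets (median -0.26), none without the batch.

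Other signalling lists held a few calls each, while 6.1% of all genes tested rose and 6.65% fell. In the TGF-beta and BMP list 14.3% rose and 9.52% fell, and in the Notch list 7.69% and 15.4%. Of 21 TGF-beta and BMP pathway genes 3 rose and 2 fell (median 0.052): the ligands Tgfb1, Tgfb2 and Tgfb3 rose by log2 0.48, 0.79 and 0.90, and Gdf15 was among the falls, with 2 rises and no fall without the batch. Tgfb3 was lost without WR 1. The target Id1 was at log2 0.65, not called. In the Notch pathway Hey1 rose, and Notch4, an endothelial receptor, and the ligand Jag1 were lower at log2 -1.05 ± 0.29 and -0.75 ± 0.22 SE, with a median over the 13 tested of -0.30. Both falls were lost without the batch and without any 1 library other than WR 3. The IGF list of 13 had 4 rises and 2 falls (median -0.069), with Igf2r, Irs1, Igfbp2 and Igfbp5 higher by log2 0.24 to 0.59 and Igf1, the growth factor itself, at 3.06, 6.01 and 4.08 CPM in EGF-WR, against 10.2, 14.9 and 6.31 CPM in WR medium (log2 -1.24 ± 0.26 SE, adjusted p = 0.00346). Igfbp7 fell (log2 -0.97 ± 0.17 SE). Of the 4 rises Igf2r was called whichever library was left out, Irs1 was lost without any 1 other than WR 2, and none was called without the batch, where 1 fall was left.

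Amino acid transport and stress response genes gave 5 rises and 2 falls of 22 (median 0.021). Slc7a5, which imports large neutral amino acids, rose by log2 0.73 ± 0.10 SE, Slc38a1 by 0.52 ± 0.084 SE and Psat1, an enzyme of serine synthesis, by 0.94 ± 0.10 SE, beside Slc38a3 and Trib3. Only Slc38a3 was called without the batch. Trib3 was lost without WR 1, and of the falls Slc7a2 was lost without EGF-WR 1 or WR 1 and Ddit3 without EGF-WR 1, EGF-WR 3, WR 1 or WR 2. Matrix proteases and inhibitors gave 1 rise and 5 falls of 13 tested (median -0.51), 1 and 0 without the batch and 2 or 3 falls without EGF-WR 1, EGF-WR 3 or WR 2. Mmp13, a collagenase, was at 3.35, 0.811 and 0.493 CPM in EGF-WR, against 17.4, 7.66 and 2.35 CPM in WR medium (log2 -2.79 ± 0.65 SE, adjusted p = 0.0116), a call lost without EGF-WR 1 or EGF-WR 3. Mmp15, a membrane-bound protease, rose by log2 0.56 ± 0.10 SE. Among 14 claudin and junction genes Cldn7 and Cldn12 rose and Cldn5, the claudin of vessel lining, fell (log2 -1.36 ± 0.26 SE, list median 0.068), none without the batch. The rises and the fall were 14.3% and 7.14% of this list, against 6.1% and 6.65% of all genes tested. Of 14 dissociation and heat-shock genes, a class known to respond to enzymatic dissociation, none rose and 2 fell (median -0.38), Dnajb1 at log2 -0.46 ± 0.13 SE and Hspb1 at log2 -0.38 ± 0.10 SE. Neither was called without the batch, and Dnajb1 was lost without EGF-WR 1, EGF-WR 3, WR 2 or WR 3 and Hspb1 without EGF-WR 2, EGF-WR 3 or WR 2.

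The KO response was then set beside that of WT organoids, which share no library with it but share batches and the fit. In WT 841 genes rose (4.92% of those tested) and 994 fell (5.82%), 10.7% together. Both genotypes called 1440 genes, 66.1% of the KO calls and 78.5% of the WT calls, all with the same sign. Of the KO-called genes 99.2% had the same sign in WT, against 74.8% of all genes. No gene (0%) passed the test of the difference between the responses in edgeR, which does not show that the responses were equal. An unadjusted p under 0.05 was reached by 286 of 17092 genes, a smaller share than the 0.05 expected if no gene differed. DESeq2 called 1 gene, the immunoglobulin gene Ighg2b, at 0.570 CPM in EGF-WR and 0 CPM in WR medium on average in KO. In edgeR its KO log2 fold change was -0.64 without EGF-WR 1 and 7.0 to 10.5 without any other single KO library of the comparison. The median standard error of the difference was 0.25 on the log2 scale. Differences several times their standard error could still fail after adjustment, as did that of the mitochondrial gene mt-Co1 at -0.52 ± 0.13 SE.

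The difference between the responses varied among the genes above. Etv5 had a log2 fold change of 3.52 in KO and 3.49 in WT, a difference of 0.028 ± 0.34 SE. Csn3 had 4.87 in KO and 4.98 in WT, a difference of -0.10 ± 0.43 SE, and Krt10 -4.63 and -4.66, a difference of 0.037 ± 0.71 SE. The difference was -0.93 ± 0.90 SE for Krt1, -0.87 ± 0.68 SE for Col2a1 and -0.96 ± 0.52 SE for Wnt11. Wnt4 had a log2 fold change of -1.33 in KO and -0.79 in WT, a difference of -0.54 ± 0.36 SE (unadjusted p = 0.145). Ripply1, a transcriptional repressor picked after its values were seen, had the smallest unadjusted p (8.31e-05), with log2 1.1 in KO and 5.09 in WT and a difference of -4.00 ± 0.80 SE, which did not pass after adjustment.

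**Figure D4:**
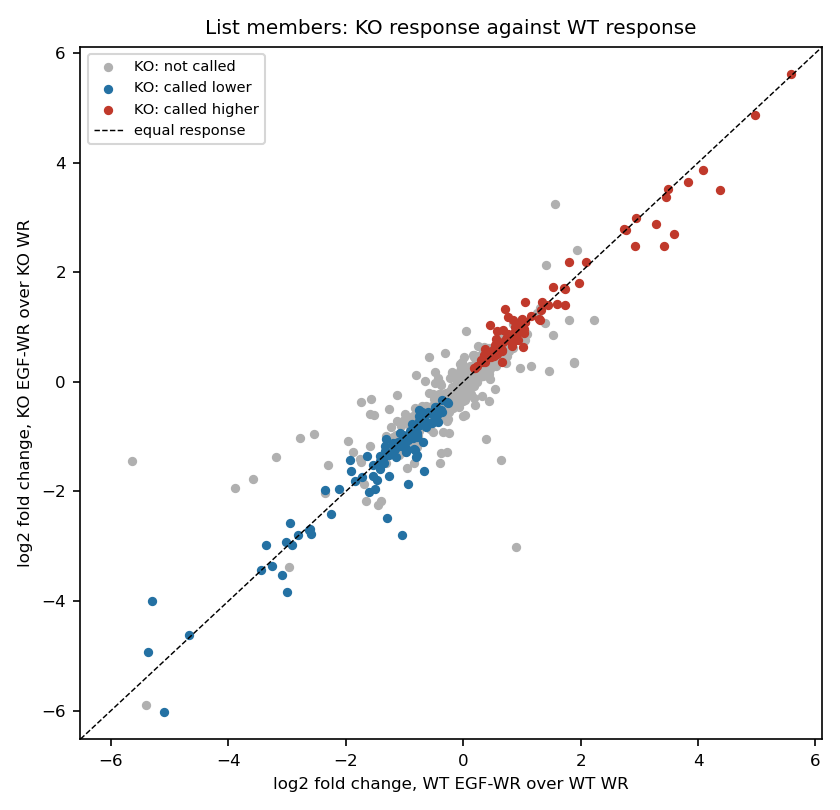
Log2 fold change, EGF-WR over WR medium, in KO organoids (vertical axis) against the same in WT organoids (horizontal axis) for the 562 tested members of the gene lists, coloured by the call in KO. The dashed line marks an equal response, and 0 of the 562 genes passed the test of the difference.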

How the data were processed

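RNA of 18 mouse mammary organoid cultures was sequenced as single-end reads of 50 bases from 100 ng of total RNA, per the labels. The authors deposited a table of whole-number read counts per gene, which was analysed, and a second table with, per the file headers, their own log2 fold change and adjusted p-value for each comparison, used only for the overlap of calls. STAR, DESeq2 and GRCm38 are named in the submitters' processing notes, while their versions and the annotation, counting tool and strand setting were not given in the sources used here. Reads of genes that overlap on opposite strands may therefore not be told apart. A further 36 columns of per-sample values were not used. Where rows shared a gene symbol, the one with most reads kept it and 89 other rows lost it, and 3047 genes had no symbol.

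Counts were filtered with filterByExpr in edgeR 4.0.16 (minimum count 10, minimum total 15; R 4.3.3), scaled by TMM and fitted over all 18 libraries with group and batch terms. The quasi-likelihood F-test was two-sided, adjusted by Benjamini-Hochberg over 17092 genes and called at 0.05; standard errors came from the coefficient and its F. With 3 libraries against 3 an exact permutation test that ignores the batch cannot go below p = 0.1, and one within batches has a higher floor. The batch is a label, and within-group deviations correlated between EGF-WR and WR libraries of the same batch (r = 0.43, 0.32 and 0.32). Across batches r was -0.28 to -0.078. Deviations from a group mean sum to 0, so these values are not independent of those within batches. Named genes are the 15 largest rises and 15 largest falls among called genes with at least 4 CPM and no overlap, leaving out predicted genes, plus members of 34 lists. The members and lists were chosen with earlier results of these data known. Alternatives were the fit without the batch, DESeq2 1.42.0 size factors or its test, other filters, the 6 libraries alone, and leaving out each library or batch. The fit was also run on counts simulated from the fitted model, which checks the code and not whether the model suits these data. Promoters were read from RefSeq, GRCm38.p6. Some list members are counted but not reported here by name.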

Additional observations from a re-analysis of the deposited data

How the results depend on the processing

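The number of genes called in KO EGF-WR against KO WR was 2179 (1043 higher and 1136 lower). Without the replicate block it fell to 439 (206 higher and 233 lower), all of them among the 2179, and that of the WT comparison to 404, against 1835 with it. It was 2132 with DESeq2 size factors, 2755 with DESeq2, 1832 without a filter, 2228 with at least 1 CPM in 3 libraries and 1661 from the 6 libraries alone. Leaving out 1 library or 1 whole batch gave 945 to 1937 calls (432 to 895 higher, 513 to 1042 lower). The lowest was without batch 1, against 1146 (483 higher, 663 lower) without batch 3, and without WR 1 there were 1451 (683 higher). In WT leaving out a batch gave 785 to 1415 calls, with 876 without batch 1. Leaving out a whole batch lowered several list counts by more than 1.5 times. Without batch 1 the rises were 3 (5 with all libraries) for ERK-responsive genes, and the falls 7 (12) for adipocyte, 6 (12) for endothelial, 6 (12) for basal, 3 (7) for mesenchymal and 2 (9) for proposed stem cell markers and 9 (15) for Wnt genes. Without batch 2 the falls were 5 (12) for basal markers and the rises 0 (4) for the IGF list. Without batch 3 the rises were 10 (18) for cholesterol and 2 (5) for fatty acid genes, and the falls 3 (9) for stem cell markers and 8 (15) for Wnt genes. The rises were 2 (5) for hormone-sensing markers without batch 1 or 2, 1 (4) for luminal markers without batch 1 or 3, and 2 (5) for Wnt genes without batch 1 or 3. The response difference had 0 calls throughout except 1 under DESeq2. No scaling moved the median of all genes by more than 0.012 on the log2 scale. Of genes named in the text, these uncalled ones changed sign on leaving out 1 library: Csn2 (log2 -3.97 to 2.32), Ighg2b (-0.64 to 10.47), Mki67 (-0.23 to 0.020), Rasgrp1 (-3.71 to 3.27) and Wap (-0.18 to 1.31). Without batch 1 the values were -0.082 for Ivl, 0.067 for Mki67 and -0.21 for Wap, and without batch 3 they were -3.97 for Csn2, 0.000379 for Mki67 and -0.077 for Wap. The causes of these changes were not tested.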

Other observations

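Several transcripts of the mitochondrial genome were lower with EGF in KO organoids. Of 7 tested mitochondrial protein genes, which encode subunits of the respiratory chain, 5 were called lower. Of the 6 tested mitochondrial rRNA and tRNA genes 1 was, the large rRNA mt-Rnr2 (log2 -0.54 ± 0.12 SE). All 13 had a log2 fold change below 0, and none was called higher. The complex I subunit gene mt-Nd5 had 1943, 3525 and 1755 CPM in EGF-WR, against 3104, 3895 and 3108 CPM in WR medium (log2 -0.55 ± 0.11 SE, adjusted p = 0.00346 in edgeR), and the cytochrome c oxidase gene mt-Co1 had 3571, 5894 and 3820.0 CPM in EGF-WR, against 4941, 5968 and 5635 CPM in WR medium (log2 -0.35 ± 0.094 SE, adjusted p = 0.018). The levels of mt-Nd5 were similar in the libraries of batch 2, where the log2 ratio was -0.68, -0.14 and -0.82 in batches 1, 2 and 3. In WT the same genes had log2 fold changes of 0.014 and 0.17, and their response differences were -0.56 ± 0.16 SE and -0.52 ± 0.13 SE (unadjusted p = 0.00252 and 0.00109), which did not pass adjustment in edgeR. Batch 2 was also the batch in which the hypoxia and glycolysis genes differed least. Whether these patterns are linked was not tested.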
